A study of Mus musculus with 52 samples.

Results

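The numbered zinc finger protein genes are the mouse genes named Zfp with a number and no further letter. Zfp36, which binds RNA through another kind of finger, was left out. Such a name is carried by 373 of 47729 genes deposited, and the 211 with a mean of at least 2 TPM (transcript abundance corrected for gene length and library size) over all 52 tumours are described here. They were selected on their mean TPM, so their level is a description. The 2 genes just below that level were Zfp781 at 1.947 TPM and Zfp763 at 1.949 TPM, and the 2 just above it were Zfp93 at 2.005 TPM and Zfp992 at 2.019 TPM. In young tumours 194 of the 211 averaged 2 TPM or more, and in aged tumours 209 did, so that 17 entered through aged tumours alone and 2 through young tumours alone. All 211 passed the filter on low counts of the test. 210 are protein coding and 1, Zfp125, is a transcribed pseudogene.

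RNA was measured in tumours of 4T1, a mammary carcinoma line of Balb/C origin, after 100000 cells were placed in the fat pad of Balb/C hosts. Young hosts were 8 to 10 weeks old by their sample labels and 8 to 12 weeks by the growth protocol, and aged hosts were older than 12 months. Antibody was given 3 times, 200 µg each, on days 7, 10 and 13 after the tumour cells. The antibody was an isotype control (clone LTF-2; 7 young and 7 aged tumours), anti-PD-L1 (clone 10F.9G2; 10 young and 8 aged) or anti-CTLA4 (clone 9D9; 12 young and 8 aged). The last 2 bind proteins that restrain T cells. Whole tumours hold host cells as well as carcinoma cells, so fewer cells of a type and less RNA per cell cannot be told apart. All hosts carried the same cell line, and no untreated or tumour-free tissue was analysed here.

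Total counts ran from 9549847 to 53778370 per library, with a median of 20665734. The labels give 3 sequencing batches. No aged tumour was in batch 2, where all 7 young isotype tumours were, and young and aged anti-PD-L1 tumours shared no batch either. Under anti-CTLA4 batch 1 held 7 aged and 4 young tumours, so only there could age be compared among several tumours of 1 batch. Replicates are numbered in the labels with no animal named, and p-values therefore reflect only how these libraries varied. Aged isotype replicate 3, young isotype replicates 1 and 6 and young anti-CTLA4 replicate 8 stood apart by a TMM factor, the scaling factor for library composition, under 0.8.

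Most Zfp proteins carry C2H2 fingers, short loops in which a pair of cysteines and a pair of histidines hold a zinc ion, and arrays of fingers read DNA sequence. A large subfamily adds a KRAB domain, which recruits TRIM28 (KAP1) and with it SETDB1, HP1 proteins and other silencing factors, and which is best known for repressing transposable elements and imprinted genes. KRAB genes arose by repeated duplication and lie in clusters, and many are near copies of each other. Reads of such copies are divided by estimation, so the value of any single clustered member is uncertain.

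In a search of the longest annotated coding sequence, 204 members held at least 1 C2H2 finger pattern and 172 held at least 5. The median was 9 fingers, and Zfp142 had the highest number at 36. A KRAB core pattern was found in 95 members, against 0.49% of 14274 other tested coding genes. The pattern asks for codons of tryptophan, leucine, glutamine, leucine and tyrosine at fixed spacing. A gene that misses it may still have a KRAB domain of other letters, so the remaining 116 members are described as having no core found. They include the pseudogene Zfp125, which had no coding sequence to search and is counted with them below. The split was made after results of these data were known.

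The KRAB core is shown for 5 members that rose in aged tumours (below), because the results are given by whether a member has it. Capitals mark the codons that the search required, and the stretches are 36 bases of coding sequence from GENCODE vM21.
Zfp81: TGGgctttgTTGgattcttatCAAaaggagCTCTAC
Zfp808: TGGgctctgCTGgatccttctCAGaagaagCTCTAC
Zfp433: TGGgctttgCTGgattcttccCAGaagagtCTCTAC
Zfp869: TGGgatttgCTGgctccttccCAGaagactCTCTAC
Zfp426: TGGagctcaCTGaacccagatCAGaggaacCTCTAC
The core began at codon 18 in Zfp81, Zfp808 and Zfp433, at codon 30 in Zfp869 and at codon 67 in Zfp426. Zfp808 and Zfp433 shared 31 of 36 bases, and Zfp81 and Zfp426 shared 21. The first finger of Zfp467, a member with 12 fingers and no KRAB core found that fell in aged tumours, is shown for contrast with the first finger of Zfp81. Capitals mark the cysteine and histidine codons.
Zfp81: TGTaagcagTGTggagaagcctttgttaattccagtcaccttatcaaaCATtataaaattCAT
Zfp467: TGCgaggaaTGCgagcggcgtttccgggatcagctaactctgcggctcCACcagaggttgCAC

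Promoter letters were searched because members with a KRAB core moved together (below). RefSeq (GRCm38.p6) promoters were matched by symbol for 174 members, and the 250 bases before the start were searched on both strands. CCAAT was found in 63.1% of 84 promoters of members with a KRAB core, in 38.9% of 90 others and in 36.1% of 12083 tested genes. GGGCGG was found in 39.3%, 53.3% and 55.7% of the same sets. The median number of CpG dinucleotides was 8 with a KRAB core, 13.5 without and 15 over all. A match is a description of letters and not of binding. The promoters of Zfp81, at chr17:33358879-33359128 on the minus strand, and of Zfp808, at chr13:62129640-62129889 on the plus strand, are shown because these genes had the smallest p among the members under anti-PD-L1 and anti-CTLA4. That of Zfp433, at chr10:81704575-81704824 on the plus strand, is shown as a KRAB member that rose and holds no CCAAT. Capitals mark any of the 5 motifs searched, read on either strand. TATAAA was found in 4.6% of the members' promoters and 7.13% of all, ACTACAA in 6.9% and 3.63%, and CCGGAAG in 17.2% and 12.5%. No searched motif contains another.
Zfp81: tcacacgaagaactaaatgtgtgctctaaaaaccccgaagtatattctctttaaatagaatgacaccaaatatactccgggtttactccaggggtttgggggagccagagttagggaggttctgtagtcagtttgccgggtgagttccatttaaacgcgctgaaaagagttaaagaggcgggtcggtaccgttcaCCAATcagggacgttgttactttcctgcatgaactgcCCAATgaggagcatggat
Zfp808: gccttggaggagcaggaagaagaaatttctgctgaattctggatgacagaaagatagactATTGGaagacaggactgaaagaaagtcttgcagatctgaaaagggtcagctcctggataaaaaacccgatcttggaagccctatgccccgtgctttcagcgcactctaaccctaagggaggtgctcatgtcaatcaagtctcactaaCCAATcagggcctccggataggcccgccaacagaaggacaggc
Zfp433: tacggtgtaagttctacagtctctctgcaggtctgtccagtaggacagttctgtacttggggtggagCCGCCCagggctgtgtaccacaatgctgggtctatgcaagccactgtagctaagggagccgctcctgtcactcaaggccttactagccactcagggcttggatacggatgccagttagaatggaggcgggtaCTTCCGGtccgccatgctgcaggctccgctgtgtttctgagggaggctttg
Zfp81 and Zfp808 each held 2 CCAAT matches. The Zfp433 window held 1 CCGGAAG and 1 GGGCGG, both on the other strand.

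The members were mostly of low level. The median of their mean TPM was 5.04, and the range ran from 2.01 to 97.0. The highest was Zfp207 (BuGZ), which binds spindle microtubules and the checkpoint protein BUB3, with a lowest value of 42.2 TPM, a median of 99.7 TPM and a highest of 141 TPM over the 52 libraries. Zfp706 followed with a mean of 43.7 TPM, Zfp637 with 32.4 TPM, Zfp639 with 30.3 TPM, Zfp277 with 29.7 TPM, Zfp330 with 27.7 TPM and Zfp560 with 20.8 TPM. Zfp511, Zfp414 and Zfp146 completed the highest 10, with means of 20.7, 18.5 and 18.2 TPM. Zfp560, of a cluster on chromosome 9, was the only one of these 10 with a KRAB core.

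Spread among libraries of a group is given as an SD. The median within-group SD was 0.34 log2 CPM (counts scaled to library size) for the members and 0.46 for all 17899 genes tested. The members were chosen at 2 TPM or more and the genes tested include lower ones, so the sets differ in level. Zfp513 had the smallest SD at 0.13 and Zfp972 the largest at 1.68. Zfp972 ran from 0.132 to 30.8 CPM among young anti-CTLA4 tumours, with a median of 2.09 CPM, and from 0.313 to 0.944 CPM among aged ones. Its longest annotated coding sequence held no finger and no KRAB core.

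Aged and young tumours under anti-CTLA4 differed in many members, mostly as higher levels in aged tumours. Of 211 members 86 rose and 10 fell in aged tumours (edgeR quasi-likelihood test, Benjamini-Hochberg adjusted p under 0.05 over 17899 genes), which is 40.8% higher. Of all genes tested 30.6% were called in this comparison, 14.8% higher and 15.9% lower. The median log2 fold change of the members was 0.33 and that of all genes was -0.06. Among the 192 members that averaged 2 TPM or more at both ages, 75 rose and 10 fell. Within batch 1 alone 69 members were called, 62 of them higher (29.4%), where 22.0% of all genes were called and 10.8% were higher.

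Zfp81, a KRAB zinc finger gene of chromosome 17, had the smallest p among the members. Its level in young anti-CTLA4 tumours ran from 6.81 to 11.7 CPM with a median of 9.45 CPM. In aged anti-CTLA4 tumours it ran from 14.6 to 20.9 CPM with a median of 16.2 CPM, and every aged tumour lay above every young one. The log2 fold change was 0.97 (SE 0.12, adjusted p = 3.38e-07, edgeR), and within batch 1 it was 1.11 (adjusted p = 0.00303). Under isotype Zfp81 ran from 7.72 to 12.4 CPM in young and from 16.5 to 28.5 CPM in aged tumours. Under anti-PD-L1 it ran from 8.23 to 12.2 CPM in young and from 14.6 to 20.3 CPM in aged tumours. Zfp81 and Macc1 were the only 2 of 17899 genes whose level in each of the 23 aged tumours lay above that in each of the 29 young tumours. 9 genes, none of them a member, lay below in the same way. These counts were made after the values were seen.

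Zfp808, a KRAB gene of chromosome 13 known to repress transposable elements, had the largest log2 fold change among the 8 members of smallest p that rose. It ran from 1.12 to 6.01 CPM in young anti-CTLA4 tumours, with a median of 2.87 CPM, and from 5.61 to 8.46 CPM in aged ones, with a median of 7.32 CPM. Of the 8 aged tumours 7 lay above all 12 young ones. The log2 fold change was 1.44 (SE 0.20, adjusted p = 1.38e-06, edgeR). Zfp433, a KRAB gene of chromosome 10 with 17 fingers, ran from 3.35 to 10.0 CPM in young (median 6.52 CPM) and from 8.54 to 17.6 CPM in aged tumours (median 15.9 CPM), a log2 fold change of 1.38 (SE 0.22, adjusted p = 1.16e-05).

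Members without a KRAB core also rose. Zfp148 (ZBP-89), which binds GC-rich promoters, ran from 24.6 to 52.1 CPM in young (median 35.4 CPM) and from 49.7 to 59.6 CPM in aged anti-CTLA4 tumours (median 52.5 CPM), a log2 fold change of 0.69 (SE 0.12, adjusted p = 3.92e-05, edgeR). Zfp451, which promotes attachment of SUMO and restrains SMAD signalling, ran from 14.0 to 32.9 CPM (median 27.2 CPM) and from 31.1 to 42.1 CPM (median 35.5 CPM), a log2 fold change of 0.62 (SE 0.11, adjusted p = 5.08e-05). Both groups overlapped for these genes, by 3 tumours of 8 for Zfp148 and by 1 for Zfp451. Zfp202, Zfp994 and Zfp846 completed the 8 members of smallest p that were higher, with log2 fold changes of 0.66, 0.97 and 0.86. Of these Zfp994 has a KRAB core, and none was found in Zfp202 and Zfp846.

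Of the 10 members that fell, Zfp467, a regulator of the choice between fat and bone lineages in marrow stroma, had the smallest p. It ran from 7.73 to 21.1 CPM in young (median 10.8 CPM) and from 4.18 to 8.54 CPM in aged anti-CTLA4 tumours (median 5.6 CPM), and 7 of the 8 aged tumours lay below all young ones. The log2 fold change was -1.10 (SE 0.19, adjusted p = 3.4e-05, edgeR). Zfp524, Zfp688, Zfp276, Zfp444, Zfp787 and Zfp219 also fell, with log2 fold changes of -0.57, -0.81, -0.64, -0.42, -0.66 and -0.50. Zfp972 had a log2 fold change of -3.69 (SE 0.89), with the spread among young tumours given above. Zfp688 was the only one of the 10 with a KRAB core.

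**Figure D1:**
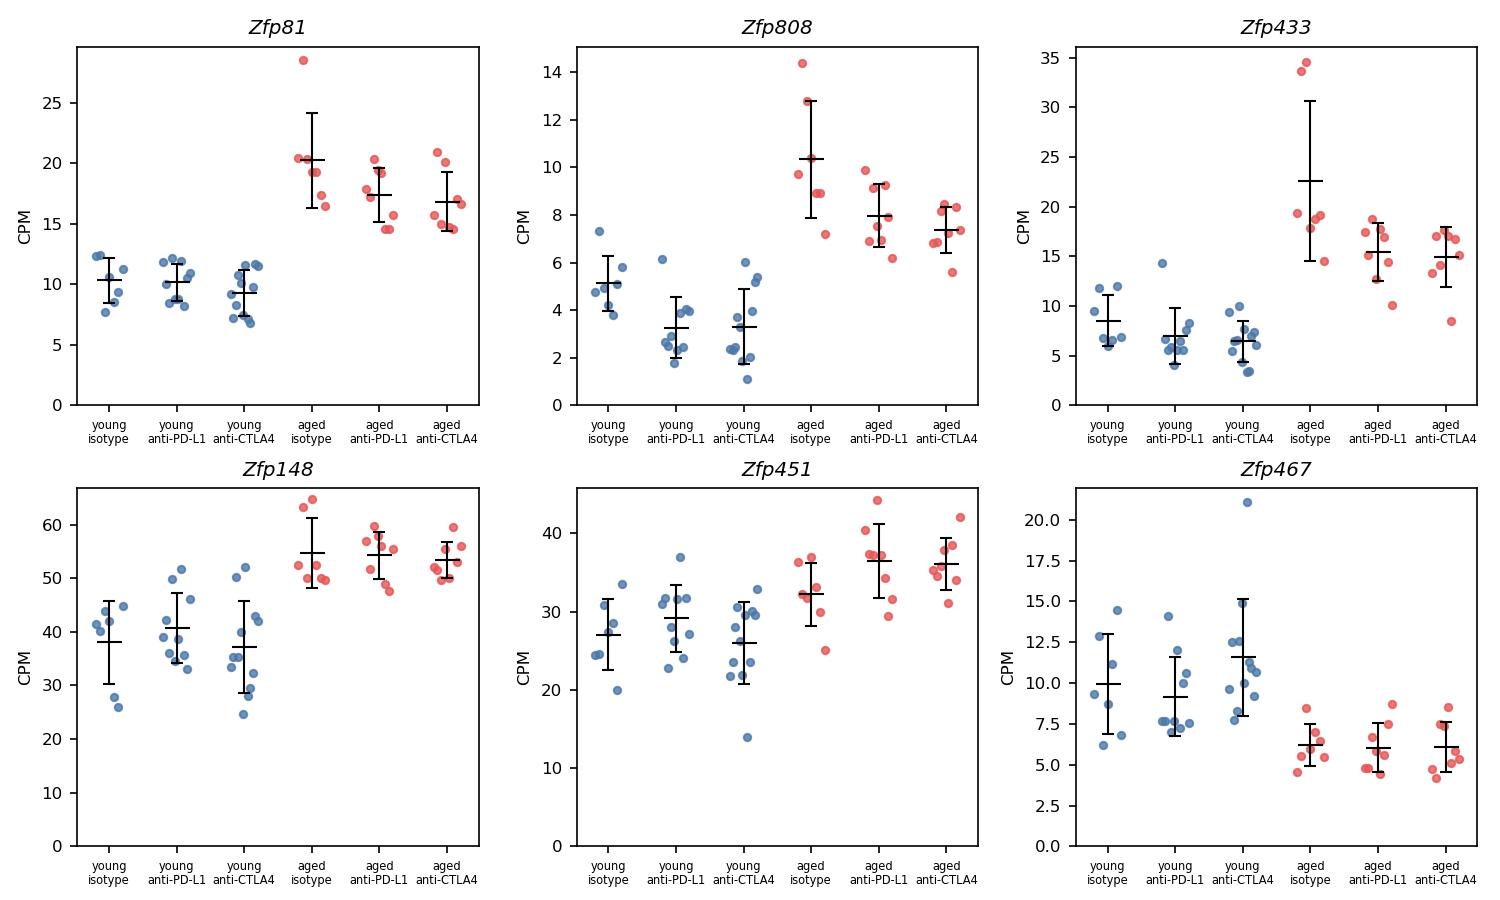
Level in CPM (linear axis from 0) of 6 members in each of the 52 tumours by group, with the mean and SD as black bars (blue young, red aged). Zfp81 in aged tumours, at 14.6 CPM or more, lies above all young tumours, and Zfp467 is lower in aged tumours.

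Under isotype 30 members rose and 5 fell in aged tumours, where 8.41% of all genes were called (4.36% higher and 4.04% lower). The members' median log2 fold change was 0.21 and that of all genes was -0.09. Of the 192 members at 2 TPM or more at both ages 27 rose and 5 fell. Zfp869, a KRAB gene of chromosome 8, ran from 12.7 to 19.8 CPM in young (median 16.3 CPM) and from 23.9 to 35.0 CPM in aged isotype tumours (median 25.5 CPM), with no overlap and a log2 fold change of 1.07 (SE 0.19, adjusted p = 0.000828, edgeR). Zfp202, Zfp24, Zfp426, Zfp81, Zfp125, Zfp747 and Zfp317 were the next by p among those higher, with log2 fold changes from 0.76 to 1.02. Zfp24, a SCAN domain protein with 4 fingers that is needed for myelination, ran from 15.0 to 33.2 CPM in young and from 31.0 to 48.9 CPM in aged tumours. Zfp362, Zfp444, Zfp524, Zfp219 and Zfp276 fell, with log2 fold changes from -1.01 to -0.54.

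Under anti-PD-L1 27 members rose and 2 fell in aged tumours, where 5.04% of all genes were called (3.08% higher and 1.97% lower). The medians were 0.29 for the members and -0.06 for all genes. Of the 192 members at 2 TPM or more at both ages 22 rose and 2 fell. The leading genes were Zfp81 (0.81, SE 0.18), Zfp808 (1.25, SE 0.28), Zfp125 (0.99), Zfp433 (1.29), Zfp869 (0.79), Zfp148 (0.72), Zfp617 (1.11) and Zfp715 (0.87), all as log2 fold changes. Zfp467 and Zfp263 fell, by 0.95 and 0.46 on the log2 scale. Under isotype and anti-PD-L1 young and aged tumours shared no batch, so within these groups age and batch cannot be told apart. The batch terms come from the groups spread over more than 1 batch (below). With the replicate number as a block 15 members were called under isotype and 1 under anti-PD-L1. Of all genes 4.2% and 0.196% were called with the block. Without a batch term 91 and 57 members were called, where 18.2% and 12.2% of all genes were.

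The age comparisons share no library of the groups compared, but 1 fit gives all of them. The batch terms of that fit rest on the groups spread over more than 1 batch. Batch 2 was joined to the others by young anti-CTLA4, with 4, 3 and 5 tumours in batches 1 to 3. The only other link was young anti-PD-L1, with 9 tumours in batch 2 and 1 in batch 3. Age under isotype and under anti-PD-L1 was adjusted through these links, so the 3 comparisons are not independent. 16 members rose in all 3: Zfp24, Zfp81, Zfp125, Zfp141, Zfp148, Zfp202, Zfp266, Zfp317, Zfp426, Zfp433, Zfp617, Zfp715, Zfp748, Zfp869, Zfp930 and Zfp948. All 27 members higher under anti-PD-L1 and 27 of the 30 higher under isotype (90%) were also higher under anti-CTLA4, and these make up 31.4% of the 86 in each case. The log2 fold change was positive in all 3 comparisons for 121 members, negative in all 3 for 42 and mixed for 48. Neither the overlaps nor the signs were counted over all genes, of which 14.8% were higher under anti-CTLA4. Whether they are particular to the members was therefore not tested. Zfp808 was not called under isotype, with a log2 fold change of 0.40 (SE 0.28, adjusted p = 0.381, edgeR). Its level was 7.21 to 14.4 CPM in aged and 3.82 to 7.32 CPM in young isotype tumours, and 6 of 7 aged tumours lay above all young ones.

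Most members that rose in aged tumours under each antibody had a KRAB core. Under anti-CTLA4 54 of these 95 members rose and 1 fell (median log2 fold change 0.53), while of the 116 others 32 rose and 9 fell (median 0.16). Under isotype 23 rose and 0 fell (median 0.51), against 7 and 5 (median -0.11). Under anti-PD-L1 20 rose and 0 fell (median 0.59), against 7 and 2 (median 0.08). Members with both a KRAB core and 10 or more fingers had medians of 0.53 under isotype, 0.66 under anti-PD-L1 and 0.63 under anti-CTLA4. The 39 members with 10 or more fingers and no core found had medians of -0.10, 0.14 and 0.21. Over the 192 members at 2 TPM or more at both ages, those with a KRAB core numbered 83. Of these 45 rose and 1 fell under anti-CTLA4 (median 0.48), 20 rose and 0 fell under isotype (0.51), and 16 rose and 0 fell under anti-PD-L1 (0.52). The 109 others had medians of 0.14, -0.10 and 0.06. With the length trend as a covariate 39 of the 95 rose and 0 fell under isotype, against 17 and 14 of the 116, and 49 rose and 1 fell under anti-PD-L1, against 22 and 8. That fit called 19.7% and 16.7% of all genes. Without the libraries of low TMM factor, 37 of the 95 rose and 0 fell under isotype, against 14 and 10 of the 116, where 14.7% of all genes were called. These are counts and medians without a test, since the split was chosen with results known.

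**Figure D2:**
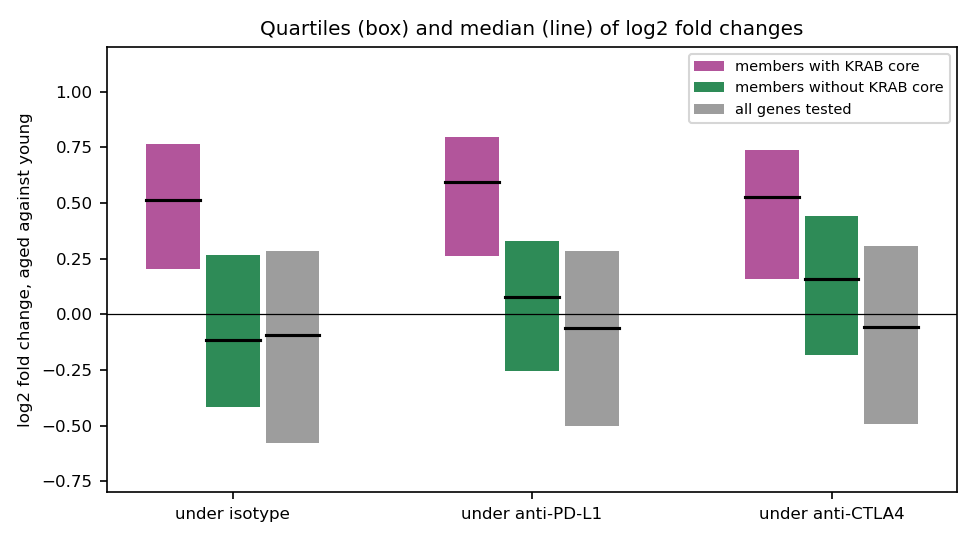
Log2 fold change of aged against young tumours (vertical axis) under each antibody for members with and without a KRAB core and for all genes tested. Boxes span the quartiles and lines mark the medians, which lie between 0.51 and 0.59 with a KRAB core and between -0.11 and 0.16 without.

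The mean log2 CPM of the 95 members with a KRAB core describes the same data library by library. Some of the 95 averaged 2 TPM or more at a single age, and the mean was not taken without them. This mean ran from 3.02 to 3.65 in young isotype, 2.82 to 3.44 in young anti-PD-L1 and 2.79 to 3.46 in young anti-CTLA4 tumours. In aged tumours it ran from 3.63 to 4.24 under isotype, 3.34 to 3.73 under anti-PD-L1 and 3.21 to 3.79 under anti-CTLA4. The ages overlapped: 12 of 23 aged tumours lay above all 29 young ones. Within batch 1 it ran from 2.79 to 3.25 in the 4 young anti-CTLA4 tumours and from 3.21 to 3.79 in the 7 aged ones. The 116 other members had medians of 4.02 in young and 4.08 in aged tumours, and only 1 aged tumour lay above all young ones.

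**Figure D3:**
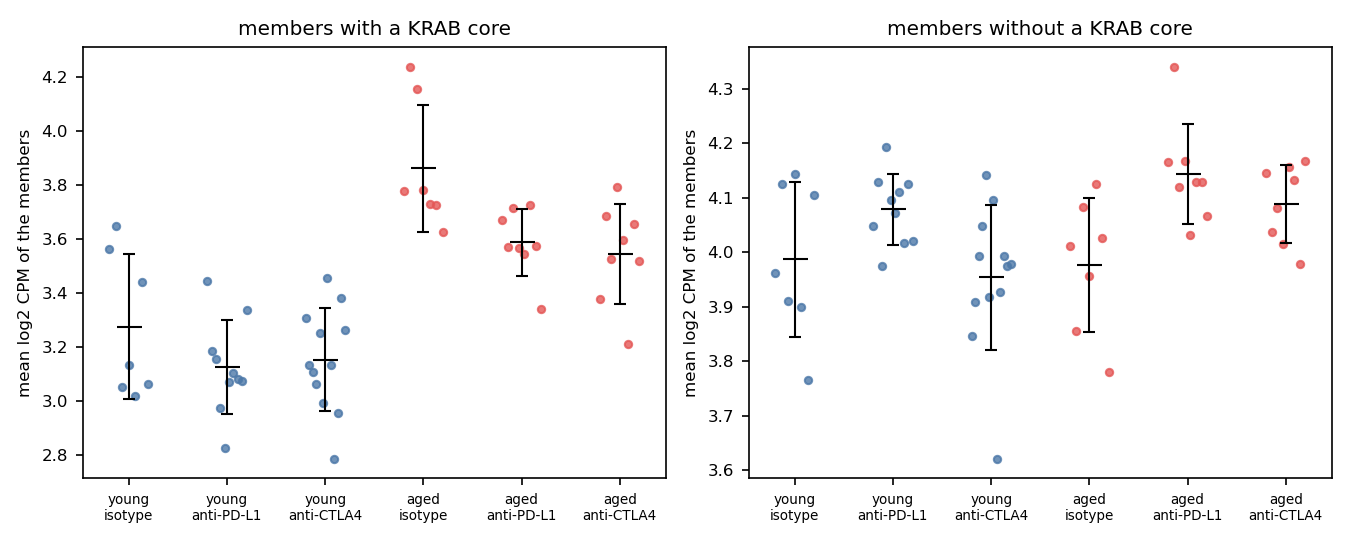
Mean log2 CPM of the members with (left) and without (right) a KRAB core in each of the 52 tumours by group, with the mean and SD of each group as black bars. Aged tumours lie higher on the left, with 12 of 23 above all young tumours, and overlap young ones on the right. The left panel includes members that averaged 2 TPM or more at a single age.

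Zinc finger genes outside the numbered names were described in the same way, with no test of the difference. The 162 other genes with 5 or more fingers had medians of -0.03 under isotype, 0.11 under anti-PD-L1 and 0.14 under anti-CTLA4 (38 rose and 6 fell). Beside the 14.8% of all genes higher and 15.9% lower under anti-CTLA4, of 40 tested ZBTB genes 10 rose and 4 fell under anti-CTLA4, of 20 ZSCAN and ZKSCAN genes 2 rose and 0 fell, and of 22 KLF and SP genes 5 rose and 3 fell. The 124 numbered Zfp genes of lower TPM that passed the filter had medians of 0.17, 0.23 and 0.31, with 36 higher and 1 lower under anti-CTLA4.

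The counts by role that follow are for aged against young under anti-CTLA4, where 14.8% of all genes were higher and 15.9% lower. The KRAB repressors of repeats and imprinted genes held 5 members, of which 2 rose under anti-CTLA4 in aged tumours. These were Zfp808 and Zfp445 (0.90, SE 0.27, adjusted p = 0.00982, edgeR), the latter a guardian of imprints. Zfp932 and Zfp961 passed in no comparison, with the smallest adjusted p at 0.0961 for young and 0.255 for aged anti-PD-L1 against isotype. Of 9 promoter-binding factors 3 rose and 1 fell. Zfp143, which binds promoters of many widely expressed genes, rose by a log2 fold change of 0.57 (SE 0.13), Zfp131 by 0.43 (SE 0.10) and Zfp148 as above, while Zfp219 fell.

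Of 11 chromatin regulators 5 rose and 0 fell, among them Zfp451, Zfp91, a ubiquitin ligase of noncanonical NF-κB signalling (0.63, SE 0.14), Zfp292 (0.79, SE 0.26) and Zfp644, a partner of the G9a methyltransferase (0.38). Of 9 members that act on RNA, ribosomes or the spindle 2 rose, Zfp326, an RNA-binding splicing factor (0.63, SE 0.14), and Zfp106 (0.64, SE 0.24). Zfp207 was at a log2 fold change of 0.27 (adjusted p = 0.0525). Of 4 regulators of mesenchymal, adipose and mammary cells only Zfp467 was called. These lists were fixed with earlier results known.

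Of 26 tested genes of the TRIM28 silencing machinery, 10 rose and 3 fell in aged anti-CTLA4 tumours (median 0.28). Cbx5, which encodes HP1 alpha, rose by a log2 fold change of 0.67 (SE 0.11, adjusted p = 1.12e-05, edgeR). Hells, a remodeller needed for DNA methylation, rose by 1.38 (SE 0.24, adjusted p = 5.37e-05), and Morc3, a silencing ATPase, by 0.57 (SE 0.10, adjusted p = 4.12e-05). Dnmt3a, a de novo DNA methyltransferase, fell by 1.17 on the log2 scale (SE 0.25, adjusted p = 0.00039). Under isotype 2 of the 26 rose and 3 fell, and under anti-PD-L1 3 rose and 0 fell. Of 14 genes of the NuRD remodelling complex 3 rose and 1 fell under anti-CTLA4, Hdac2 and Rbbp7 among those higher and Mbd2 lower.

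Genomic clusters differed in how many of their members were called, which was described with no test. Under anti-CTLA4 14.8% of all genes were higher and 15.9% lower in aged tumours, and 40.8% of the 211 members were higher. On GRCm38 90 members lay in 14 clusters of at least 4 members with gaps of at most 1000000 bases. On chromosome 17, between 21008903 and 23564238, 12 of 17 members rose under anti-CTLA4 with a median log2 fold change of 0.69, and 15 of the 17 had a KRAB core. On chromosome 9, between 19622102 and 20605409, 5 of 6 members rose (Zfp317, Zfp26, Zfp426, Zfp266 and Zfp846; Zfp560 did not) with a median of 0.74. All 5 members of the chromosome 8 cluster between 69209038 and 69791178 rose (Zfp930, Zfp868, Zfp869, Zfp963 and Zfp866). On chromosome 4, between 146449023 and 147848366, 4 of 5 rose with a median of 0.65.

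In 4 clusters no member rose and 1 fell. The 5 members on chromosome 7 between 4915217 and 5053723, none with a KRAB core, had a median of -0.25. The 5 members on chromosome 6 between 47877204 and 48445825, which include Zfp467 and of which 4 had a KRAB core, had a median of -0.09. The 4 members on chromosome 2 between 177464733 and 178078476, of which 3 had a KRAB core, had a median of -0.23. The 8 members on chromosome 7 between 127233061 and 127885996, of which 3 had a KRAB core, had a median of -0.05. In the other 6 clusters between 1 and 4 members rose and 0 fell, with medians from 0.19 to 0.56. Members of a cluster share sequence, and reads may be divided among them, so they are not independent counts.

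**Figure D4:**
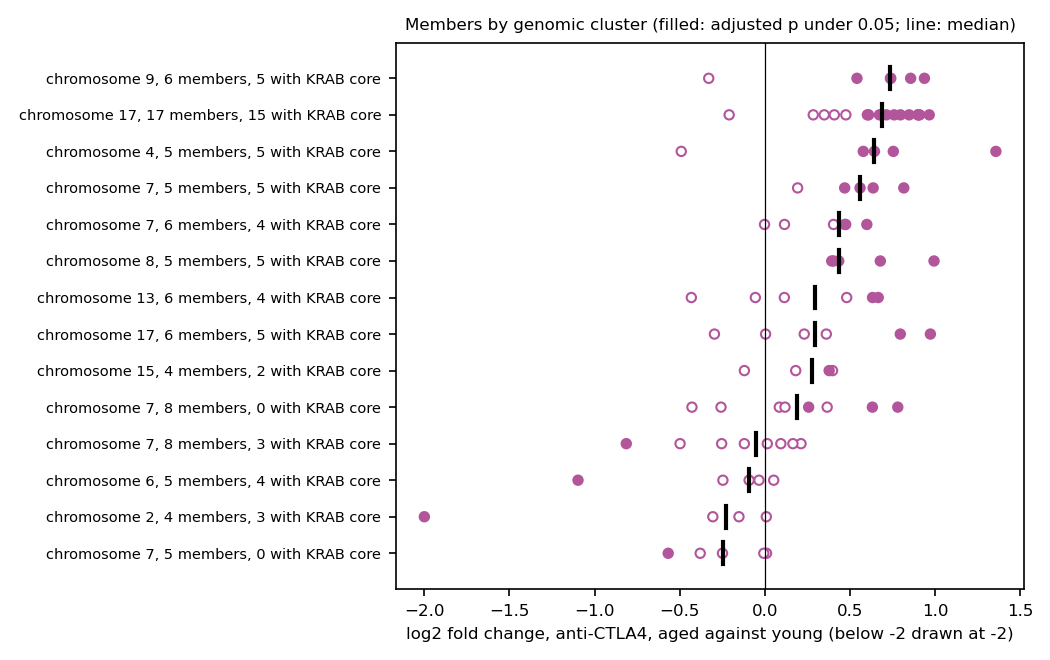
Log2 fold change of aged against young tumours under anti-CTLA4 (horizontal axis; values below -2 are drawn at -2) for the members of 14 genomic clusters, with the median as a black line and called members filled. The clusters of chromosomes 9 and 17 with medians of 0.74 and 0.69 lie at the top.

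Gene length was considered because long and short genes moved apart between libraries. Length was read from the ratio of count to TPM and is given relative to the median of the genes tested. The members were somewhat longer, with a median of 1.24, and those with a KRAB core had a median of 1.21 against 1.36 without. Across genes the log2 fold change of aged against young tumours under anti-CTLA4 rose with length, with r = 0.38 over the 211 members and r = 0.34 over all 17899 genes, which are not independent replicates. Between 1 and 2 times the median length the median log2 fold change was 0.59 for members with a KRAB core, 0.15 for other members and 0.06 for other genes. Between 0.5 and 1 times it was 0.39, -0.06 and -0.13. With the length trend of each library as a covariate the median was 0.64 for members with a KRAB core (67 rose and 3 fell) and 0.06 for the others (32 rose and 18 fell), where 36.1% of all genes were called.

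**Figure D5:**
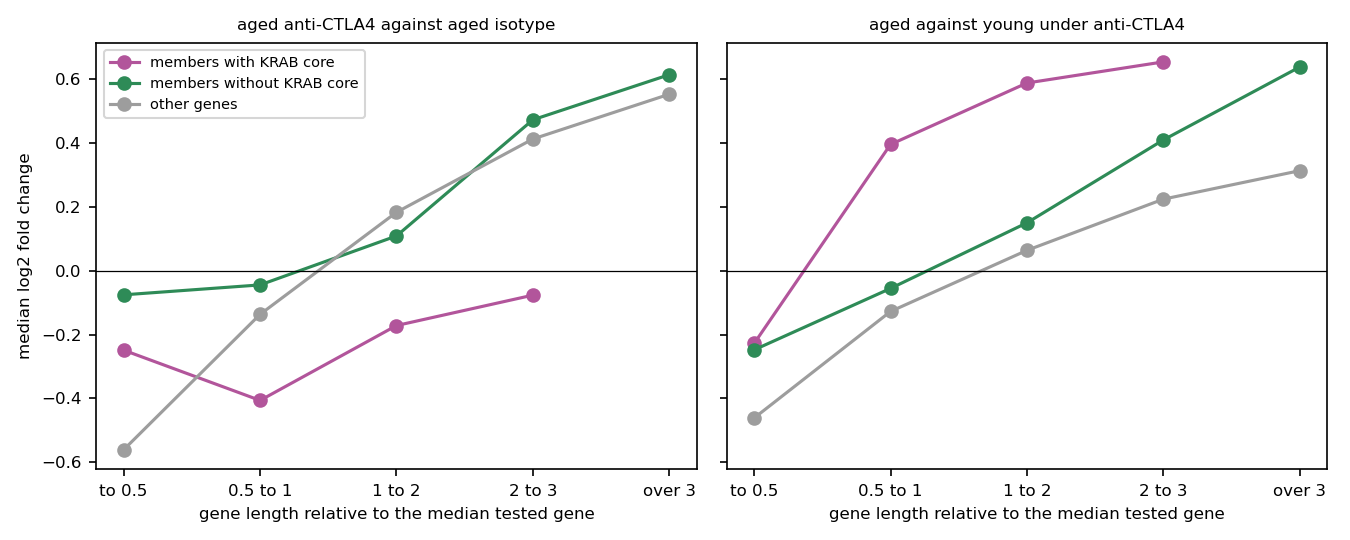
Median log2 fold change (vertical axis) by gene length relative to the median tested gene (horizontal axis, 5 bands; bands of under 5 genes are left out) for aged anti-CTLA4 against aged isotype (left) and aged against young under anti-CTLA4 (right). Members with a KRAB core lie below other genes on the left, apart from the shortest band, and above them on the right.

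Markers of other cells moved with age under anti-CTLA4 as well. Of 9 T cell markers 7 fell and of 9 neutrophil markers 8 fell in aged tumours, and of 6 carcinoma epithelial markers 4 rose and 0 fell. The summed level of the T cell list ran from 112 to 1290 CPM in young and from 50.5 to 221 CPM in aged anti-CTLA4 tumours. That of the neutrophil list ran from 213 to 3600 CPM in young and from 65.5 to 282 CPM in aged ones. The epithelial list ran from 633 to 2670 CPM and from 2170 to 3210 CPM. Of 8 macrophage markers 2 fell, and their summed level ran from 5030 to 9630 CPM in young and from 3420 to 7760 CPM in aged tumours. Of 8 fibroblast markers 1 rose, and no B cell, adipocyte, endothelial or mammary secretory marker was called. None of the 6 epithelial and 9 T cell markers was at 0 in any library, and of the neutrophil markers Elane was at 0 in some. Under isotype 2 of the 6 epithelial markers rose and 1 macrophage marker fell, and no other marker was called. Under anti-PD-L1 2 epithelial markers rose, and 4 neutrophil, 1 macrophage and 1 fibroblast marker fell. The part of these cells in the members' differences was not tested.

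Antibody comparisons called few members. Both young comparisons use the same 7 isotype libraries, as do both aged ones. In young tumours anti-PD-L1 against isotype called 6 members, 1 higher and 5 lower, where 1.59% of all genes were called (0.223% higher and 1.37% lower). All 6 had a KRAB core. Zfp808 ran from 1.80 to 6.16 CPM with anti-PD-L1 (median 2.79 CPM) and from 3.82 to 7.32 CPM with isotype (median 4.94 CPM), and 9 of 10 treated tumours lay below the isotype median. Its log2 fold change was -0.78 (SE 0.18, adjusted p = 0.0131, edgeR).

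Zfp934 ran from 1.06 to 3.18 CPM with anti-PD-L1 and from 2.01 to 4.86 CPM with isotype in young tumours, a log2 fold change of -0.98 (SE 0.25, adjusted p = 0.0306, edgeR). Zfp944, Zfp984 and Zfp97 also fell, with log2 fold changes of -0.72, -0.61 and -0.73. Zfp790 was higher, at 6.13 to 9.47 CPM against 3.08 to 8.31 CPM, a log2 fold change of 0.52 (SE 0.13, adjusted p = 0.033). The groups overlapped for all 6. No member was called within batch 2 alone, after leaving out the tumours with a TMM factor under 0.8, or without young isotype replicate 6, and 19 (9.0%, against 7.41% of all genes) were called without young isotype replicate 7. Of the cell type markers 1 of 8 fibroblast markers was called, higher with anti-PD-L1.

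Anti-CTLA4 against isotype in young tumours called 2 members, both lower, where 0.0726% of all genes were called (0.00559% higher and 0.067% lower). Zfp808 ran from 1.12 to 6.01 CPM with anti-CTLA4, and 8 of 12 treated tumours lay below all isotype tumours. Its log2 fold change was -1.16 (SE 0.23, adjusted p = 0.0225, edgeR), and -0.62 (adjusted p = 0.0682) without a batch term. Zfp644 ran from 14.7 to 31.8 CPM against 19.8 to 32.6 CPM, a log2 fold change of -0.64 (SE 0.14, adjusted p = 0.0497), which was -0.04 (adjusted p = 0.895) without a batch term. No member was called within batch 2 or without young isotype replicate 7. No marker of another cell type was called in this comparison. From isotype to anti-CTLA4 the median summed level of the T cell list went from 122 to 293 CPM, the neutrophil list from 420 to 803 CPM, the macrophage list from 4780 to 7870 CPM and the epithelial list from 2410 to 1640 CPM, and their part in the result was not tested. Of members that did not pass, Zfp994 had a log2 fold change of -0.80 (adjusted p = 0.155), Zfp790 of 0.39, Zfp566 of 0.45 and Zfp90 of 0.24.

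In aged tumours no member was called by edgeR for either antibody, and 0.0% of all genes were. At an unadjusted p under 0.05 there were 67 members for anti-PD-L1 (31.8%, against 30.1% of all genes) and 74 for anti-CTLA4 (35.1%, against 29.7%). DESeq2 called 17 members (8.06%, against 11.4% of all genes) and 10 members (4.74%, against 7.61%). Without aged isotype replicate 5 edgeR called 35 members (16.6%, against 16.9% of all genes) and 34 members (16.1%, against 15.0%). By value, Zfp362 had the smallest p among those higher in both comparisons, with log2 fold changes of 0.76 (SE 0.22) and 0.64 (SE 0.21). Zfp281, a pluripotency regulator, and Zfp106 followed for anti-PD-L1 at 0.67 and 0.84, with Zfp560, Zfp330 and Zfp637 at -1.10, -0.37 and -0.54 on the lower side. For anti-CTLA4 these were Zfp652 at 0.57 and Zfp740 at 0.41, with Zfp747, Zfp672 and Zfp995 at -0.42, -0.71 and -0.69.

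Length went with these values. The log2 fold change across members had r = 0.53 with length for anti-PD-L1 and r = 0.54 for anti-CTLA4 in aged tumours, against r = 0.48 and r = 0.53 over all genes. With the length trend as a covariate Zfp560 and Zfp637 for anti-PD-L1 came to log2 fold changes of 0.005 and 0.016. By KRAB core, 77 of 95 members with a KRAB core had a negative log2 fold change for anti-CTLA4 (median -0.22), against 41 of 116 others (median 0.14). For anti-PD-L1 the numbers were 71 of 95 (median -0.17) and 34 of 116 (median 0.20). In young tumours they were 70 of 95 (median -0.20) and 40 of 116 (median 0.08) for anti-PD-L1, and 68 of 95 (median -0.17) and 73 of 116 (median -0.06) for anti-CTLA4. The isotype group of each age is shared by both of its comparisons. Over the libraries of a group, the mean level of members with a KRAB core had r from -0.82 to -0.55 with the length trend. The exception was young anti-CTLA4, at r = 0.18. The mean of the other members had r from 0.49 to 0.92. The median length trend was -0.13 in young and -0.07 in aged isotype tumours, and ran from 0.01 to 0.13 in the antibody groups. Signs over all genes are not set beside these counts, and the part of length in them was not tested.

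The difference of the antibody effect between ages called no member and 0.0% of all genes for either antibody by edgeR, and DESeq2 called 0 for anti-PD-L1 and 1 for anti-CTLA4, where it called 0.168% and 0.0894% of all genes. At an unadjusted p under 0.05 there were 7 members (3.32%, against 3.66% of all genes) and 18 members (8.53%, against 7.02%). The members' median differences, as aged effect minus young effect, were 0.08 and 0.10 in log2. For anti-PD-L1 Zfp808 had a difference of 0.85 (SE 0.27, adjusted p = 0.601, edgeR), Zfp944 of 0.69, Zfp984 of 0.63, Zfp747 of -0.46, Zfp790 of -0.40 and Zfp707 of -0.29. For anti-CTLA4 Zfp644 had a difference of 0.74 (SE 0.18, adjusted p = 0.278), Zfp808 of 1.04, Zfp942 of 0.76, Zfp747 of -0.54, Zfp688 of -0.71 and Zfp954 of -0.71.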

How the data were processed

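RNA of 52 tumours was sequenced from 500 ng of total RNA with a strand-marking poly(A) kit and paired reads of 75 bases, per the labels' protocols. The authors deposited estimated counts and TPM per gene. The submitters' processing notes name Salmon without a version, DESeq2 1.16.1 and mm10. The sources used here do not say how transcripts were summed to genes or whether strand was used. TPM served for choosing members and for gene length (count divided by TPM).

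Members, lists, the KRAB split and tests were chosen with earlier results of these data known. Counts were tested with edgeR 4.0.16 (R 4.3.3; filterByExpr, TMM, terms for group and batch, 1 quasi-likelihood fit over all libraries, Benjamini-Hochberg over 17899 genes, threshold 0.05). CPM used TMM library sizes, with a prior count of 2 before log2. Per comparison, members past the threshold were named if at most 10, otherwise the 8 of smallest p per direction. Where under 5 passed, 3 per direction were added as values. The highest 10 by TPM, the genes next to the TPM limit and up to 4 per list were also named. Copies among libraries were checked (smallest chi-square per degree of freedom 17.51 over 209 pairs). On simulated data for aged against young under anti-CTLA4 (17692 genes) 68 of 100 genes changed 2-fold and 92 of 100 changed 4-fold were recovered, with 7 false calls. For age under isotype 42 and 84 were recovered, and under anti-PD-L1 47 and 87. For young anti-PD-L1 against isotype these were 72 and 97. The simulated counts held no batch effect. Same-numbered replicates of different groups had a median correlation of 0.006 over 113 pairs. Alternatives, DESeq2 1.42.0 among them, are given with the closing observations.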

Additional observations from a re-analysis of the deposited data

Results flagged for a closer look

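Of 75 groups of 4 to 10 tumours examined for 1 value far from the rest, 7 held one, where chance gives about 1 in 20. The mean log2 CPM of members with a KRAB core was 3.34 in aged anti-PD-L1 replicate 8, where the others ran from 3.55 to 3.73. That of members without a KRAB core was 4.34 in aged anti-PD-L1 replicate 2, against 4.03 to 4.17. In log2 CPM, Zfp644 was 4.31 in aged isotype replicate 7 (others 4.88 to 5.16). Zfp81 was 4.84 in aged isotype replicate 2 (others 4.05 to 4.36), and Zfp869 was 5.13 in the same tumour (others 4.58 to 4.72). Zfp433 was 3.11 in aged anti-CTLA4 replicate 6 (others 3.74 to 4.14), and Zfp869 was 4.17 in aged anti-PD-L1 replicate 8 (others 4.44 to 4.65).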

How the results depend on the processing

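Alternative values, 738 in all, were taken for 75 pairs of a named member and a comparison, 47 of them called as reported. Of the 738, 620 kept direction and side of the threshold, 18 newly passed it and 95 no longer did, which only the 47 could do. The other 5 changed sign, none of them called. Those 5 were Zfp560 (0.005) and Zfp637 (0.016) for aged anti-PD-L1 with the length trend as a covariate, and without a batch term Zfp984 (-0.121) for the anti-PD-L1 difference between ages and Zfp644 (-0.068) and Zfp942 (-0.49) for the anti-CTLA4 difference. The cause was not tested. Members called for young anti-PD-L1, 6 as reported, were 0 with no filter on low counts, without libraries of low TMM factor, with only the groups compared or within batch 2, 1 without a batch term or with the length trend, 2 at a minimum of 4 TPM, 10 with DESeq2, and from 0 to 19 leaving out 1 isotype tumour. For young anti-CTLA4, 2 as reported, they were 0 with no filter, with only the groups compared or within batch 2, 1 without libraries of low TMM factor or at 4 TPM, 7 without a batch term (neither of the 2 among them), and 0 to 2 leaving out 1 isotype tumour. These 7 were 3.32% of the members, against 6.93% of all genes. The 10 for young anti-PD-L1 with DESeq2 were 4.74%, against 4.82% of all genes. In aged tumours the 0 became 17 for anti-PD-L1 and 10 for anti-CTLA4 with DESeq2, and 0 to 35 and 0 to 34 leaving out 1 isotype tumour. For the anti-CTLA4 difference DESeq2 called 1. Aged against young under isotype, 35, came to 91 without a batch term, 70 with the length trend, 61 without libraries of low TMM factor, and 20 (without aged isotype replicate 2) to 47 leaving out 1 tumour. Shares of all genes were 18.2% without a batch term, 19.7% with the length trend and 14.7% without libraries of low TMM factor. Under anti-PD-L1, 29 came to 11 with no filter, 57 without a batch term and 80 with the length trend. The count was 64 with only the groups compared and 16 at 4 TPM. Of all genes 12.2% were called without a batch term, 16.7% with the length trend and 13.2% with only the groups compared. As reported the share was 5.04%, and with no filter it was lower, over more genes tested. Under anti-CTLA4, 96 came to 69 within batch 1, 120 with the length trend and 54 at 4 TPM. Shares of all genes were 22.0% within batch 1 and 36.1% with the length trend. All counts at 4 TPM are of the smaller set of members that reached it, so they are not comparable one to one. For age under anti-PD-L1 the fit of only the groups compared also held no batch term, since its young and aged tumours shared no batch. The members' median log2 fold change, 0.29 under anti-PD-L1, was 0.2 without a batch term or with only the groups compared and 0.197 at 4 TPM. Under anti-CTLA4 it was 0.215 at 4 TPM, and for the anti-CTLA4 difference it was -0.02 without a batch term.

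The labels do not say whether replicate numbers pair the tumours. After group and batch were fitted, same-numbered tumours of different groups had a median correlation of 0.006 over 113 pairs (-0.505 to 0.58). Others had a median of 0.003 over 1004 pairs (-0.655 to 0.777). A median over all pairs cannot exclude pairing in some of them. With the replicate number as a block, members called were 77 for age under anti-CTLA4, 15 under isotype and 1 under anti-PD-L1, and 3 and 1 for young anti-PD-L1 and anti-CTLA4. In the same order, 23.9%, 4.2%, 0.196%, 0.754% and 0.0112% of all genes were called with the block. The alternatives by KRAB core (length trend, batch 1, libraries of low TMM factor left out, members at 2 TPM or more at both ages) were chosen after seeing the data. Without libraries of low TMM factor the medians with a KRAB core were 0.63, 0.62 and 0.58 under isotype, anti-PD-L1 and anti-CTLA4. Within batch 1 the median was 0.55 with and 0.18 without a KRAB core. The shallowest library held 9549847 counts, and members near the TPM minimum rest on few reads there.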
